A study of Trametes gibbosa with 15 samples.

Results

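Described here are 224 genes of the white-rot fungus Trametes gibbosa (also called Lenzites gibbosa) whose RNA level in cultured mycelium was at least 2 times the control on each of 4 days with wood. They were taken from 12038 genes with reference identifiers, in a table of 12885 genes. All groups were strain CB-1, a single isolate, grown without shaking for 10 days at 25 °C on a low-nitrogen asparagine-succinate medium (LNAS) with glucose. The control mycelium was harvested at that point, with no wood. The wood groups then received 2 g of poplar chips (Populus simonii × P. nigra) and were kept at 25 °C for 3, 5, 7 or 11 more days. Each group had 15 bottles that served as 3 biological replicates, and the sources used here do not say how bottles were combined. Wood and the added culture age cannot be told apart, because the control has no later harvest.

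White-rot fungi are basidiomycetes that break down lignin together with cellulose and hemicellulose. They do so with secreted oxidative enzymes such as laccases and peroxidases, and with secreted glycoside hydrolases that release sugars from the wood polysaccharides. Low nitrogen and the presence of wood are both classical conditions under which such enzymes are studied. The deposited files do not pair the gene identifiers with products or positions, so members are named by identifier, no role is given to any of them, and the label mycelium was not checked against marker genes.

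The 15 libraries held 32472274 to 48361622 estimated counts each. Codes in the labels divide them into a first library series of 6 libraries, namely all controls with replicate 1 of days 3, 5 and 7, and a second series of the other 9. What the codes stand for is not stated. One day 5 library carries no replicate number that matches a label and is called the unnumbered day 5 library. Libraries of 1 group differed by more than sampling noise in every pair, with a chi-square of 108 to 333 for each degree of freedom, so none was counted as a repeat. P-values measure the spread between these libraries.

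Members were chosen by their own measured values, on CPM, which are counts scaled to library size, here corrected by trimmed-mean (TMM) factors. A member had more than 10 counts in at least 1 control, a mean of at least 5 CPM over the 12 wood libraries, and a mean at each of days 3, 5, 7 and 11 at least 2 times the control mean. All 12 of its wood libraries also lay above all 3 controls, and no group ranged 100-fold or more between its libraries, for which CPM came from library totals and had 0.1 added. Wood against control is therefore a description below, with no test. The 224 genes are 1.86% of reference genes. The step on each day's mean alone was met by 5.12% of reference genes, and the step that no wood library overlaps a control by 11.5%.

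The 2-fold step did most of the choosing. Of 8364 reference genes that met the control count and the wood level, 280 also met the 2-fold step, and 224 of these had no overlap between wood and control. Without the 2-fold step 1291 genes would have met the other steps. The step on control counts and the one on range within a group each removed 0 further genes. Just inside the 2-fold limit lay gene_2400, gene_1113 and gene_10416, whose smallest ratio over the 4 days was 2.006, 2.006 and 2.008. Just outside lay gene_5589, gene_10279 and gene_9606, at 1.999, 1.997 and 1.997. At the level limit, gene_5031 with 5.14 CPM was inside and gene_7943 with 4.78 CPM was outside. The member closest to the range limit was gene_5356, whose libraries differed 98.9-fold within a group. The weakest separation was that of gene_2863, whose lowest wood library held 12.4 CPM against 12.3 CPM in the highest control.

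As a group the 224 genes stood close to 2.8 times the control on every wood day. The median ratio to the control mean was 2.60 at day 3, 2.74 at day 5, 2.90 at day 7 and 2.79 at day 11, and it was 1.03, 1.04, 1.03 and 1.05 over the 11324 of 11386 genes tested that had counts in the control. All controls are first-series and all day 11 libraries second-series, so at day 11 wood and library series cannot be told apart. Over the 12 wood libraries together the median ratio was 2.79, with quartiles of 2.45 and 3.49. In single wood libraries the median over members lay between 2.43 (replicate 1 of day 5) and 3.09 (replicate 2 of day 7). The 3 controls lay between 0.976 and 1.02 on the same scale, which is set by their own mean. The wood libraries formed 1 group well apart from them, as the choice of members requires. Single members varied more among the 3 controls, with a median coefficient of variation of 17.4% and a maximum of 173%. The gains were mostly moderate, with 32 members (14.3%) at 4-fold or more for the mean of the wood libraries, beside 2.19% of all genes tested. On every day 45 (20.1%, beside 1.59%) stood at 3-fold or more and 18 (8.04%, beside 0.940%) at 4-fold or more. The choice of members favours such ratios.

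**Figure D1:**
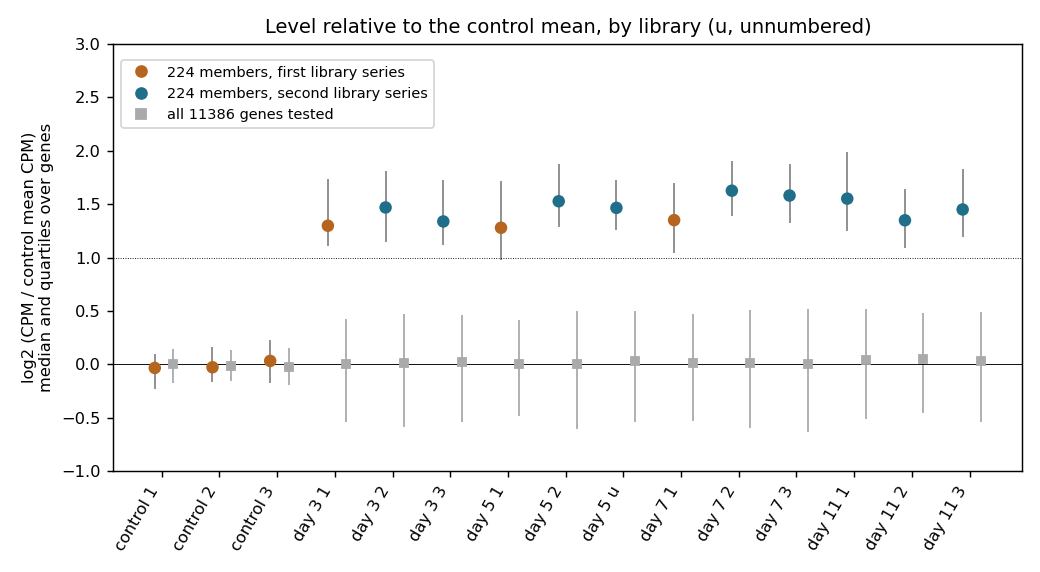
For each library, the median (points) and quartiles (bars) over the 224 members and over all 11386 genes tested of log2 of CPM over the control mean CPM, in log2 units (0.01 CPM added to both). Members lie between 1.28 and 1.63 in the 12 wood libraries, and all genes tested lie near 0 in every library.

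Scaling sets how large these gains are, though not their direction, which the choice of members required. By library totals alone, without TMM factors, the median log2 ratio of wood to control was 1.88 for the members and 0.46 for all genes tested, against 1.48 and 0.07 with TMM factors. The members thus stood about equally far above the middle of all genes with either scaling. This follows from the scaling itself, which multiplies all genes of a library by the same factor. The deposited FPKM values (fragments scaled by transcript length and sequencing depth) are also set per total, and come from the same libraries that chose the members. By FPKM 223 of 224 members reached 2-fold for the wood mean, beside 19.6% of all genes tested. All wood libraries lay above all controls in 223, beside 27.7% of all genes tested. These counts are therefore not independent of the choice. The exception to the 2-fold count was gene_10877 and that to the overlap count was gene_6137, both described further on.

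The members took a larger share of the transcriptome with wood, as their choice requires. Shares are of library totals, by which the median log2 ratio of wood to control was 0.46 for all genes tested. Together the members held 0.565% ± 0.0751 of all counts in the control (SD, n = 3) and 2.25% ± 0.154 with wood (SD, n = 12). The shares were 2.22% ± 0.104 at day 3, 2.18% ± 0.167 at day 5, 2.30% ± 0.256 at day 7 and 2.27% ± 0.115 at day 11 (SD, n = 3 each). Single wood libraries ranged from 1.99% to 2.50%. Within days 3, 5 and 7 the first-series library held the smallest share of counts each time (2.11%, 1.99% and 2.01%), but by FPKM it held the largest share of its day at day 3 (2.30%).

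Ranked by FPKM, which allows for transcript length, the members came from the middle and lower ranks of the control. Their median rank among the 12038 reference genes was 7312 in the control and 4736 with wood. In the control 0 members were among the 100 highest genes and 4 (1.79%) among the 1000 highest. With wood these numbers were 3 (1.34%) and 23 (10.3%). Of all genes tested, 0.878% and 8.78% hold such ranks. The median FPKM of members was 4.29 in the control and 19.4 with wood, beside 9.41 and 13.0 over all genes tested. The choice of members on these same libraries favours low ranks in the control and gains in rank and FPKM with wood.

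The 6 members with the highest FPKM on wood were gene_10061, gene_11602, gene_7945, gene_3845, gene_9218 and gene_5169. gene_10061 held 193, 247 and 455 FPKM in control replicates 1 to 3 and 907 to 1614 FPKM with wood (median 1208). It went from rank 293 to rank 14 of the reference genes. On the CPM scale its mean was 969 ± 460 in the control (SD, n = 3) and 2999 ± 558 with wood (SD, n = 12), and the third control, at 1492 CPM, stood well above the other 2, at 628 and 786 CPM.

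gene_11602 held 106, 212 and 119 FPKM in the controls and 403 to 1143 FPKM with wood (median 750), and moved in rank from 621 to 51. Its highest library was replicate 1 of day 3, and its lowest wood library was the unnumbered one of day 5. gene_7945 held 54.1, 127 and 141 FPKM in the controls and 435 to 793 FPKM with wood (median 551). Its day means were 1027, 785, 725 and 600.02 CPM at days 3, 5, 7 and 11, and days 3 and 11 did not pass the test (log2 fold change -0.79, SE 0.29, edgeR adjusted p = 0.144).

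gene_3845 held 95.1, 111 and 151 FPKM in the controls and 299.7 to 502 FPKM with wood. gene_9218 held 56.5, 70.3 and 81.2 FPKM in the controls and 247 to 392 FPKM with wood. gene_5169 was the most variable of the 6, with 24.5, 85.1 and 40.1 FPKM in the controls and 111 to 413 FPKM with wood, so that replicate 2 of day 11 (81.4 CPM) lay just above replicate 2 of the control (77.7 CPM).

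The 6 members with the largest ratio on their lowest wood day were gene_1814, gene_1478, gene_9555, gene_10316, gene_12040 and gene_5567, and most had few counts in the control. Their ratios below are of the mean over all wood libraries, by which gene_5356, at 14.7, also stood above gene_12040 and gene_5567. gene_5356 held 0, 318 and 0 counts in the controls and 596 to 6608 with wood. gene_1814 held 15, 0 and 18 counts in the 3 controls and 592 to 6773 counts in the wood libraries. Its mean was 0.400 ± 0.352 CPM in the control (SD, n = 3) and 56.5 ± 35.3 CPM with wood (SD, n = 12), a ratio of 141, and 142 within the first series. Day 3 held both its lowest and its highest wood library, with 53.4, 155 and 12.6 CPM in replicates 1 to 3.

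gene_1478 held 3, 11 and 4 counts in the controls and 201 to 976 with wood, a ratio of 59.6. gene_9555 held 0 counts in control replicates 1 and 2 and 94 in replicate 3, against 469 to 1420 counts with wood, so that its ratio of 19.1 rests on 1 control library. gene_10316 held 6, 26 and 26 counts in the controls and 290 to 786 with wood, a ratio of 15.7. gene_12040 held 22, 13 and 8 counts in the controls and 114 to 599 with wood, a ratio of 12.6. Low counts in this table are estimates, so these ratios are less precise than those of abundant genes.

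In contrast, gene_5567 was already expressed without wood. It held 14.1, 57.1 and 69.8 CPM in the controls and 194 to 887 CPM with wood (median 411), a ratio of 9.59 for the means. By FPKM it moved from rank 4179 to rank 333. Its wood libraries spread over days rather than by day, since its highest value was in the unnumbered day 5 library and its lowest in replicate 1 of day 11.

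**Figure D2:**
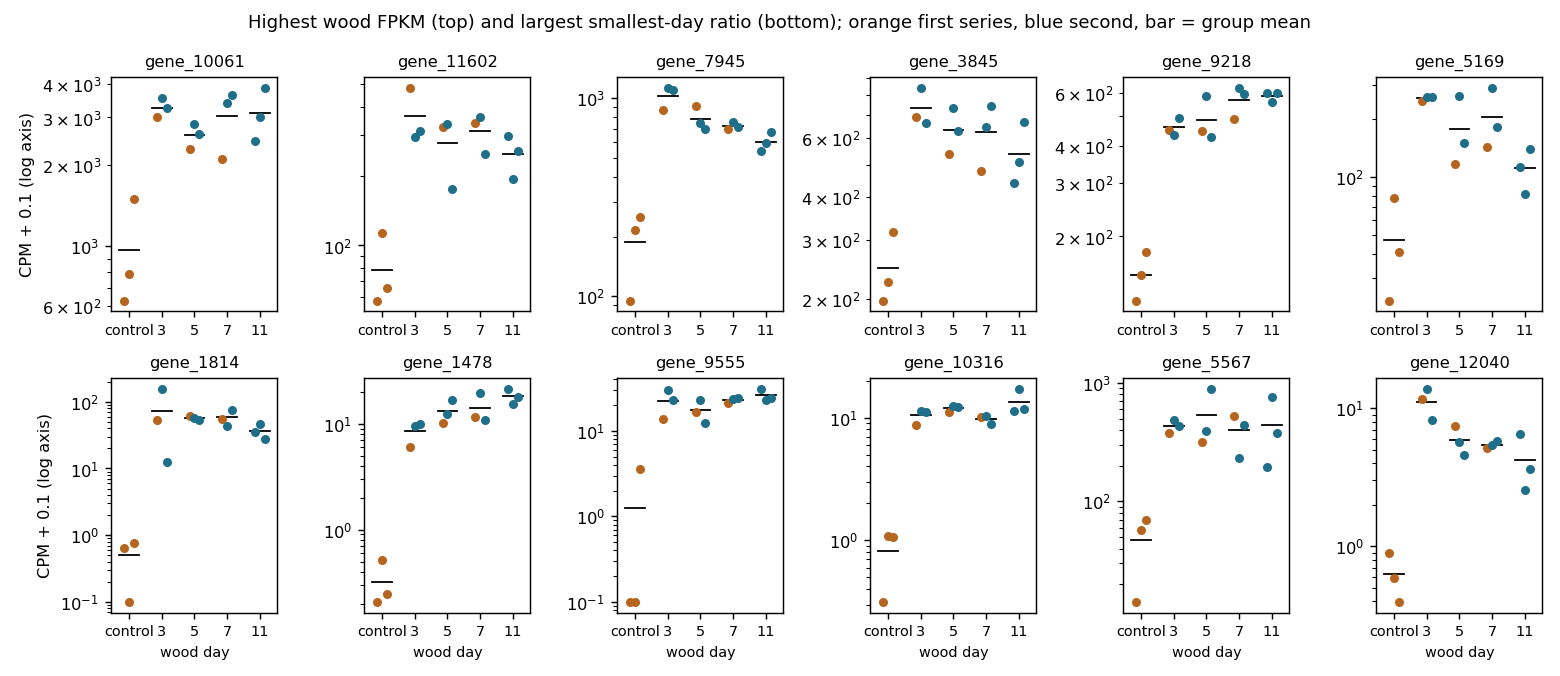
CPM + 0.1 on a log axis in each library for the 6 members with the highest wood FPKM (top row) and the 6 with the largest smallest-day ratio (bottom row), by wood day. Orange points are first-series libraries, blue points second-series libraries and bars are group means. In every panel all 12 wood libraries lie above the 3 controls, which the choice of members requires.

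Because all 3 controls are in the first series and 9 of the 12 wood libraries are in the second, the members were also read within the first series, against replicate 1 of days 3, 5 and 7. The same libraries took part in the choice of members, so this reading is not independent of it. Day 11 has no first-series library, so its ratio to the control could not be read this way. Within the first series the median ratio was 2.49, with a range of 1.36 to 142. Of the 224 members, 186 kept a 2-fold or larger ratio for the mean of these 3 libraries, 140 kept it in each of the 3, and 38 lay under it for the mean, where 8.41% and 3.88% of all genes tested reached the first and second of these. The lowest was gene_9415, at 5.38, 7.28 and 8.50 CPM in the controls, 10.0, 8.84 and 9.97 CPM in the first-series wood libraries and 9.09 to 41.8 CPM in the second series. Its ratio was 1.36 within the first series and 3.05 with second-series wood libraries.

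The shift between series within days 3, 5 and 7 was read from the edgeR fit over all genes, as second series minus first. Second-series values favour a gene in the choice of members, since they make up most of each wood mean, so these numbers describe the members and are not independent of their choice. The median log2 shift was 0.20 for the members and 0.01 for all genes tested. The shift was above 0 in 160 of 224 members, beside 50.6% of all genes tested. A call needed an adjusted p under 0.05 with a change of 2-fold or more (edgeR quasi-likelihood test, Benjamini-Hochberg over all genes), and 6 members passed, or 2.68%, beside 2.69% of all genes tested. One was higher in the second series, beside 1.05% of all genes, and 5 were lower, beside 1.64%.

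The member higher in the second series was gene_8816. It held 178, 182 and 213 CPM in the controls, 316, 244 and 257 CPM in the first-series libraries of days 3, 5 and 7, and 434 to 633 CPM in the second series (log2 shift 1.08, SE 0.13, edgeR adjusted p = 0.00056). Its ratio to the control was thus 1.43 within the first series and 2.52 over all wood libraries. The largest shift the other way was that of gene_6137, with 93.6, 125 and 100.01 CPM in the first series and 28.1 to 67.2 CPM in the second (log2 shift -1.53, SE 0.21, edgeR adjusted p = 0.00092). Its ratio to the control was 4.22 within the first series and 1.72 with second-series wood libraries. gene_4796, gene_6623, gene_12059 and gene_7338 were also lower in the second series (log2 shifts of -1.16, -1.26, -1.12 and -1.10). Leaving out 1 library ended the call of gene_7338 in 3 of 15 fits, of gene_6623 in 2 and of gene_12059 in 1.

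**Figure D3:**
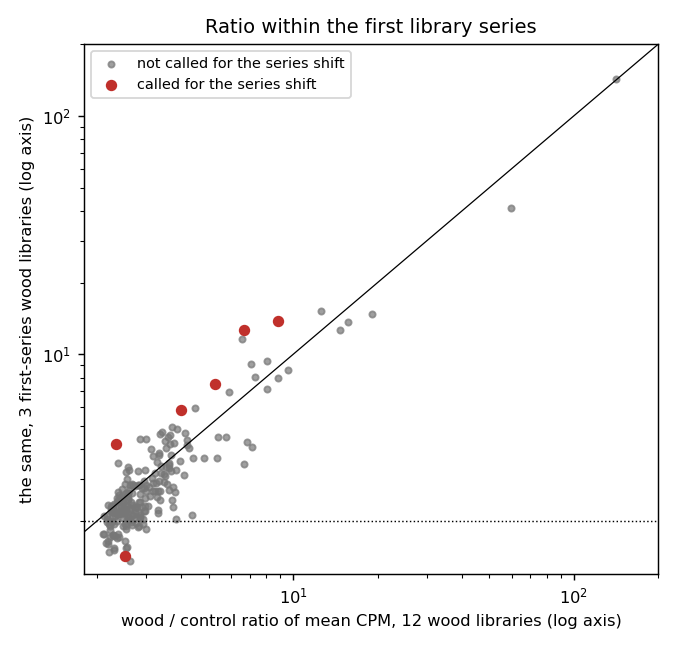
For each of the 224 members, the ratio of mean wood CPM to mean control CPM over all 12 wood libraries (x axis) against the same ratio over the 3 first-series wood libraries (y axis), both on log axes. The line marks equal ratios, the dotted line a first-series ratio of 2, with 38 members below it, and red points the 6 members called for the series shift.

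The members' course after day 3 was tested between wood days, in an edgeR fit of all genes with group and library series as terms. The contrasts compare wood days alone, but the controls enter the fit's scaling and estimate of spread. The choice of members also acted on these wood values, through the floor of 2 times the control on every day, the separation of every wood library from the controls and the minimum wood level. Most members held their level, by day means of CPM that carry no series term. The highest day mean was under 1.5 times the lowest in 174 of 224 members (77.7%), beside 67.5% of all genes tested. It was under 2 times the lowest in 204 (91.1%, beside 84.5%). The highest mean lay at day 7 in 85 members (37.9%, beside 25.7% of all genes tested) and at day 11 in 65 (29.0%, beside 28.5%). It lay at day 3 in 48 (21.4%, beside 30.0%) and at day 5 in 26 (11.6%, beside 15.8%). The lowest lay at day 3 in 105 (46.9%, beside 31.8%). Means stood in ascending order of the days in 33 members and in descending order in 18, which is 14.7% and 8.04%, beside 7.96% and 8.78% of all genes tested. Day 11 has second-series libraries only and the other days have both, so these counts cannot be separated from the library series. The members' median log2 series shift was 0.20, beside 0.01 for all genes tested.

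Between days 3 and 11, 9 members passed the test, or 4.02%, beside 1.42% of all genes tested. Of the 9, 4 were higher at day 11, beside 0.729% of all genes tested, and 5 lower, beside 0.694%. The median log2 fold change was 0.01 for the members and 0.01 for all genes tested, so no common drift over these days was seen. The count rested on single libraries. It was 2 without replicate 2 of day 3, 3 and 4 without replicates 2 and 1 of day 11, and 5 each without replicate 1 of day 3, replicate 1 of day 7 or replicate 3 of day 7. It was 4 in the second series alone, namely gene_5371, gene_7700, gene_3842 and gene_8077, and 2, gene_3842 and gene_10173, without the series term.

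The 4 members higher at day 11 were gene_5371, gene_10052, gene_6623 and gene_12059. gene_5371 held 183, 71.8 and 103 CPM at day 3 and 295, 223 and 225 CPM at day 11, with 43.2 to 51.6 CPM in the controls, and the days did not overlap (log2 fold change 1.39, SE 0.21, edgeR adjusted p = 0.00676). Its call was kept in 15 of 15 fits that leave out 1 library. Its day means followed the order of the days, at 119, 144, 183 and 248 CPM. gene_10052 held 18.9, 7.22 and 9.04 CPM at day 3 and 32.8, 31.8 and 46.8 CPM at day 11 (log2 fold change 2.00, SE 0.48, edgeR adjusted p = 0.0429). Its days did not overlap either, but its call was lost in 11 of the 15 fits, among them those without control replicate 1 or 2 (edgeR adjusted p = 0.0510 and 0.0544).

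For gene_6623 and gene_12059 the days overlapped. gene_6623 held 244, 64.1 and 95.8 CPM at day 3 and 269.9, 298 and 141 CPM at day 11 (log2 fold change 1.43 with SE 0.35, edgeR adjusted p = 0.0475), and its call was lost in 12 of the 15 fits. gene_12059 held 45.7, 13.6 and 18.6 CPM at day 3 and 45.8, 42.3 and 29.6 CPM at day 11 (log2 fold change 1.14 with SE 0.26, edgeR adjusted p = 0.0363), and its call was lost in 6. In both genes the high day 3 library was replicate 1, the only one of the first series, and both were called for the series shift. Their log2 fold changes without the series term were 0.81 and 0.59.

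The 5 members lower at day 11 were gene_3842, gene_4796, gene_7700, gene_10173 and gene_8077, and in all 5 the days did not overlap. gene_4796 held 344, 128 and 159 CPM at day 3 and 51.0, 75.8 and 41.5 CPM at day 11 (log2 fold change -1.40, SE 0.20, edgeR adjusted p = 0.00617). Its controls held 18.8 to 23.7 CPM. Its call was kept in 15 of 15 fits that leave out 1 library, with an adjusted p of 0.0580 in the second series alone. gene_3842 held 99.1, 137 and 85.9 CPM at day 3 and 35.6, 28.8 and 39.0 CPM at day 11 (log2 fold change -1.64, SE 0.27, edgeR adjusted p = 0.0122). Its mean at day 5 was 56.2 CPM, between the means of days 3 and 11.

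gene_7700 held 405, 842 and 652 CPM at day 3 and 190.5, 259 and 362 CPM at day 11 (log2 fold change -1.37 with SE 0.22, edgeR adjusted p = 0.0111). gene_10173 held 37.9, 25.3 and 27.0 CPM at day 3 and 14.4, 11.6 and 14.7 CPM at day 11 (log2 fold change -1.13 with SE 0.25, edgeR adjusted p = 0.0302). gene_8077 held 236, 292 and 221 CPM at day 3 and 115, 112 and 139 CPM at day 11 (log2 fold change -1.03 with SE 0.23, edgeR adjusted p = 0.0322). At day 11 these genes lay above their controls in each library, which the choice of members requires. Leaving out 1 library ended the calls of these 3 in 1, 7 and 8 of 15 fits, and that of gene_3842 in 2.

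**Figure D4:**
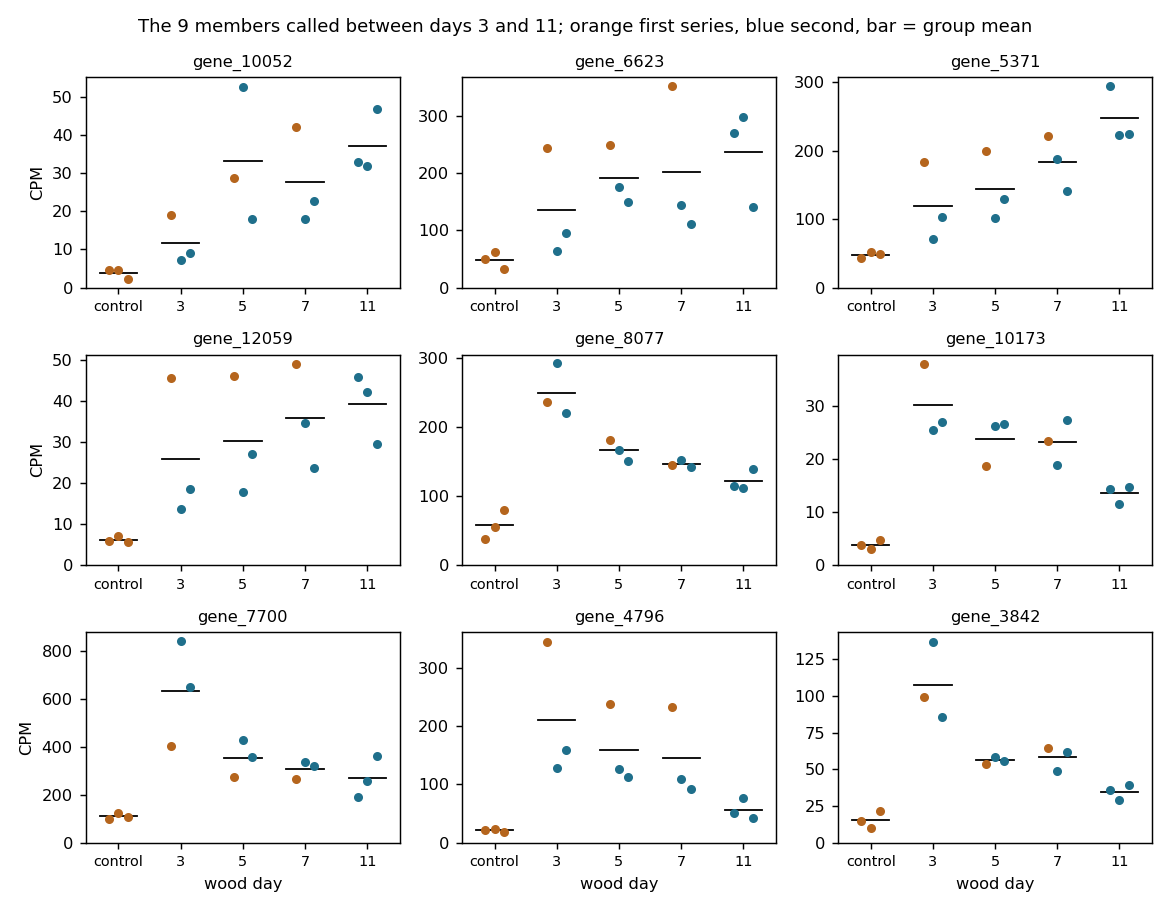
CPM in each library, by wood day, for the 9 members called between days 3 and 11. Orange points are first-series libraries, blue points second-series libraries and bars are group means. The first 4 panels are the members higher at day 11 and the other 5 those lower at day 11. All lie above their controls, which the choice of members requires.

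The other comparisons between days gave few calls. In the test that the 4 wood days are equal, with 2-fold or more between the fitted highest and lowest day, 3 members passed (1.34%, beside 0.615% of all genes tested). They were gene_5371, gene_7700 and gene_4796, with edgeR adjusted p of 0.0261, 0.0368 and 0.0357. This count was 0 without replicate 2 of day 3, 1 without replicate 1 or 3 of day 3, replicate 1 or the unnumbered library of day 5, replicate 1 or 2 of day 7, or any single library of day 11, and 5 without replicate 3 of the control.

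Between days 3 and 7, 0 members passed the edgeR test, beside 0.246% of all genes tested, and DESeq2 called 1. An unadjusted edgeR p under 0.05 was reached by 44 members (19.6%), beside 16.8% of all genes tested. Of these 44, 34 were higher at day 7, or 15.2% of members, beside 7.73% of all genes tested with such a p, while 0.0351% of all genes tested passed the full call in that direction. The log2 fold change was above 0 in 144 of 224 members, beside 49.7% of all genes tested. Its median was 0.11 for the members against -0.0028 for all genes tested. Between days 7 and 11, 0 members passed, beside 0.00878% of all genes tested, and DESeq2 called 2. An unadjusted edgeR p under 0.05 was reached by 29 (12.9%), beside 10.9% of all genes tested. Here 75 of 224 members had a log2 fold change above 0, beside 51.2% of all genes tested. The median was -0.09 for the members against 0.01 for all genes tested. The members' median was thus slightly above 0 for day 7 over day 3 and slightly below 0 for day 11 over day 7, and day 5 was not set against day 7.

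Members differed widely in how evenly the wood libraries expressed them. The coefficient of variation (CV) over the 12 wood libraries had a median of 22.4%, with a range of 7.15% to 122%, beside a median of 22.2% over all genes tested. The 3 steadiest were gene_9155, gene_5819 and gene_3844. gene_9155 held 4.19 to 5.81 CPM in the controls and 10.0 to 12.9 CPM with wood. gene_5819 held 14.6 to 15.5 CPM in the controls and 28.6 to 39.0 CPM with wood. gene_3844 held 36.7 to 38.0 CPM in the controls and 71.2 to 94.6 CPM with wood. All 3 stood between 2.24 and 2.26 times the control, and their ratios within the first series were 2.25, 2.31 and 2.22.

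The 3 least steady members had a few libraries far above the rest. gene_10907 held 1.61 to 3.96 CPM in the controls and a median of 13.5 CPM with wood, but 110 CPM in replicate 2 of day 5. gene_9278 held 4.26 to 5.77 CPM in the controls and a median of 11.0 CPM with wood, but 53.9 CPM in replicate 3 of day 3, 62.6 CPM in the unnumbered day 5 library and 63.7 CPM in replicate 1 of day 11. gene_3168 held 1.04 to 2.83 CPM in the controls and a median of 6.07 CPM with wood, but 31.7 CPM in replicate 1 of day 5 and 31.9 and 40.5 CPM in replicates 1 and 2 of day 7. Their ratios for the means, in this order, were 8.07, 4.35 and 6.57.

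A second readout came from setting the counts beside the FPKM values. For newly assembled loci with 1 transcript, FPKM times length over counts stayed within 0.800% of the library's median for every locus, so the ratio of counts to FPKM of any gene gives an implied mean transcript length. For reference genes no transcripts are listed in the files used here. Their deposited length equalled the implied one within 5% in every library in only 25 of 216 members (11.6%), beside 13.4% of all genes with a value, and its median over the 224 members was 5822 bases. For new loci with listed transcripts the deposited length is the sum over transcripts, and whether this holds for reference genes was not tested. The implied length uses the counts that chose the members, so it is given with no test. A value was obtained for 216 of 224 members, those with 10 or more counts in every control. The median implied length with wood was 1835 bases, beside 1764 bases over the 10157 genes of all those tested that had a value. It differed 1.2-fold or more between wood and control means in 16 members (7.41%), 7 longer and 9 shorter with wood, beside 5.46% of all genes. All wood libraries lay outside the control range on 1 side in 32 members (14.8%), beside 5.37% of all genes, and 6 members met both.

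The clearest case was gene_10877. Its implied length was 1421, 1507 and 1386 bases in the controls and 3559 to 4119 bases in the 12 wood libraries, 2.69 times as long on average, with no overlap. The implied length comes from the ratio of counts to FPKM, so the different gains of this gene by counts and by FPKM are the same observation. Its CPM was 46.4, 52.5 and 74.5 in the controls and 163 to 317 with wood, a ratio of 3.68 with TMM factors and 4.83 by library totals. Its FPKM was 28.8 ± 7.91 in the control (SD, n = 3) and 51.0 ± 8.63 with wood (SD, n = 12), a ratio of 1.77. It was the only member under 2-fold by FPKM.

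gene_3902 differed the other way, from 2698, 2673 and 2878 bases in the controls to 1619 to 1705 bases with wood. Its ratio of wood to control was 3.65 by CPM with TMM factors, 4.83 by library totals and 7.96 by FPKM. gene_9402 was longer with wood, at 1146 to 1293 bases in the controls and 1369 to 3835 bases with wood, and its highest value was in replicate 1 of day 3. In gene_6137 the implied length alternated between libraries of 1 group. It was 2775, 2554 and 743 bases in control replicates 1 to 3, it was 2234 and 2395 bases in replicate 3 of day 3 and replicate 2 of day 5, and it lay between 720 and 849 bases in the other wood libraries. For this gene a ratio of 2.34 by CPM stands beside one of 5.41 by FPKM, with 12.8 ± 10.7 FPKM in the control (SD, n = 3). By FPKM its wood and control libraries overlapped. Control replicate 3 held 25.1 FPKM, above replicate 3 of day 3 (12.3 FPKM) and replicate 2 of day 5 (10.6 FPKM).

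**Figure D5:**
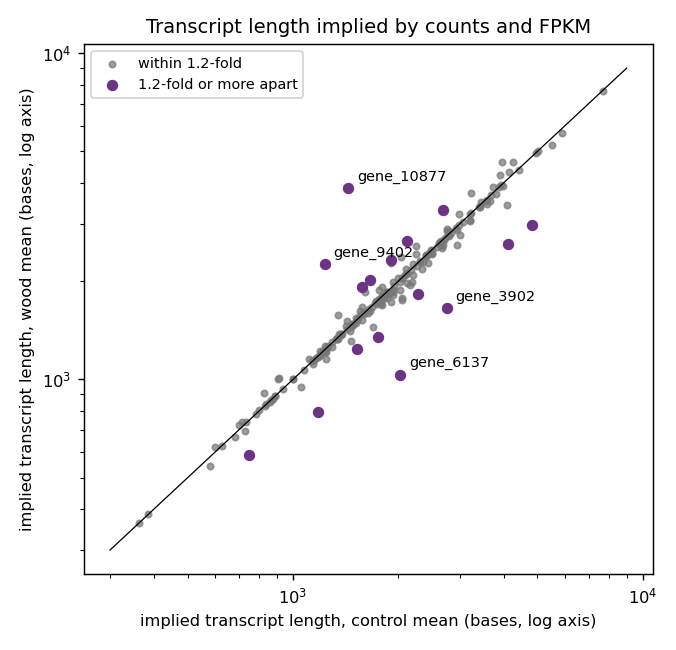
Mean implied transcript length in bases in the control (x axis) and with wood (y axis) for 216 members, both on log axes. The line marks equal lengths and purple points the 16 members that differ 1.2-fold or more, among them gene_10877 above the line and gene_3902 and gene_6137 below it.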

How the data were processed

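RNA selected by poly-T beads was sequenced in pairs on an Illumina platform, per the labels' protocols. HISAT2, StringTie, DESeq2 and DESeq 1.10.1 are named, with no role for any, per the submitters' processing notes, and genome build and annotation were not given in these sources. The authors deposited estimated counts per gene, as whole numbers, FPKM values and an annotation of new loci, from which only the number of transcripts per locus was read. The count column with no matching number was placed in day 5 by its name, and was set beside the FPKM column titled replicate 3, since both gave 1 constant within 0.607% over 29 loci.

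The test was edgeR 4.0.16 in R 4.3.3 (filterByExpr, 11386 genes, all 224 members among them, TMM, robust quasi-likelihood, group and library series as terms, 9 residual degrees of freedom). SEs are the size of the log2 fold change over the square root of the F statistic. Alternatives used DESeq2 1.42.0 and limma 3.58.1. The procedure was tested on simulated data. Columns of samples not used numbered 0.

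The members, lists and tests were chosen with earlier results of these data known. Named members were the 6 highest by wood FPKM, the 6 largest by smallest day ratio, up to 4 per direction called between days 3 and 11, up to 2 per direction called for the other contrasts and the series shift, the 3 lowest and 3 highest in CV, those next to the 2-fold limit, and the longest runs of consecutive identifiers. gene_8077, gene_7338, gene_9415, gene_10877, gene_3902, gene_9402, gene_2863 and gene_5356 were named after their values were seen, as were the remaining 2 genes at the level limit. Product lists could not be used without product names.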

Additional observations from a re-analysis of the deposited data

Results flagged for a closer look

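Wood days differed among the members in 2 counts, by the edgeR test of the difference itself. Day 11 was called different from day 3 in 9 members (4.02%, beside 1.42% of all genes tested). The 4 wood days were called different among themselves in 3 (1.34%, beside 0.615%). With 1 library left out these counts were 2 to 9 and 0 to 5. Groups of 3 libraries were too small to be searched for single outlying libraries.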

How the results depend on the processing

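The number of genes that meet the rule was 224 and was 679 by library totals, 662 with FPKM for the fold and overlap steps, 644 at a fold of 1.5 and 45 at a fold of 3, and 211 to 254 when 1 library was left out. These sets held 224, 221, 224 and 45 of the 224 members, and without control replicates 1, 2 and 3 it was 190, 199 and 199 of them. Within the first series 253 genes met the rule, 140 of them members. The median log2 ratio of members, 1.48, was 1.88 by library totals and 1.31 in the first series, and 1.41 to 1.52 with 1 library left out. Members called between days 3 and 11, 9 in all, were 2 without the series term, 4 with second-series libraries only, 3 with a replicate block and 2 to 9 with 1 library left out. For the 4 wood days the count of 3 was 14 with DESeq2, 0 each without the series term, with second-series libraries only and with a replicate block and 0 to 5 with 1 library left out. For days 3 and 7 the count of 0 was 1 with DESeq2 and 1 with limma on FPKM at either pseudocount, for days 7 and 11 it was 2 with DESeq2, and both stayed at 0 to 0 with 1 library left out. The series shift called 6 members, 0 with the replicate block and 6 to 9 with 1 library left out. The causes of these changes were not tested. Replicate numbers did not pair libraries across groups, since 4 of 26 same-numbered pairs had correlated deviations over 0.1 (range -0.0629 to 0.449) and 5 of 14 numbered libraries correlated best with their own number, so the replicate block, fitted without the unnumbered library, is given only here. The log2 fold changes of the called members kept their sign in every alternative run, with 83 calls lost and 280 kept. The depth gives low-count controls, such as those of gene_1478, little precision.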

Other observations

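Some members carried consecutive identifiers. Of the 224, 22 (9.82%) had a neighbouring number that was also a member, in 11 pairs and in no longer run, beside 442 of 12038 reference genes (3.67%) with a member as neighbour. The sources used here do not say whether the numbers follow position on the genome. The pair gene_9555 and gene_9556 stood 19.1 and 7.12 times above the control, with mean levels of 22.0 and 356 CPM with wood. The pair gene_11601 and gene_11602 stood 4.26 and 3.85 times above the control, and the pair gene_11416 and gene_11417 stood 6.86 and 3.72 times above it. The pair gene_10051 and gene_10052 stood 3.70 and 7.34 times above the control, and gene_3167 and gene_3168 stood 2.83 and 6.57 times above it. In the other 6 pairs, gene_1887 and gene_1888, gene_3844 and gene_3845, gene_5954 and gene_5955, gene_7027 and gene_7028, gene_8257 and gene_8258, and gene_10416 and gene_10417, the ratios lay between 2.11 and 3.54.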
